A study of Mus musculus with 12 samples.

Results

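The genes described here make sterols and fatty acids or handle the sterol once it is made. A list of 39 mouse symbols was matched by Ensembl ID, and each found 1 row among the 56691 gene IDs of the count table. Bulk mRNA was sequenced from CD8+ T cells of mouse spleen, 3 libraries for each of 4 groups: CKO cells at 48 h, WT cells at 48 h, CKO cells at 0 h and WT cells at 0 h. In CKO cells (CKO usually stands for conditional knockout) the targeted gene is Senp1, whose enzyme strips SUMO tags off other proteins, and WT cells carry the gene intact. All cells were isolated as naive CD8+ T cells. For the 48 h groups the receptor complex was triggered through CD3 with an antibody at 5 µg/ml and costimulation was given by an anti-CD28 antibody at 1 µg/ml, while the 0 h groups were not stimulated. The sources used here do not give the promoter that drives the deletion, the exons removed, or the age, sex and number of the mice. By its title, the series concerns how Senp1 regulates T-cell activation.

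Cholesterol is built from acetyl-CoA through mevalonate, the isoprenoid farnesyl diphosphate and squalene, and fatty acids are built from the same acetyl-CoA by a separate chain of enzymes. Transcription factors of the SREBP family switch on both chains, and they are held inactive in the endoplasmic reticulum while sterol is plentiful. Liver X receptors work the other way round: they sense oxidised sterols and switch on genes that export cholesterol or lower its uptake. In dividing T cells the SREBP genes are known to be raised and the liver X receptor targets to be lowered, as membrane is made for new cells.

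Promoters are described first, before the levels. RefSeq promoter windows (GRCm38.p6), 250 bases before to 50 bases after a start site, were found for 31 of the 39 members. The letters TCACNCCAC of the sterol regulatory element, which SREBP binds, were searched on both strands, and they stood in a window of 1 of 31 members, against 1.44% of all 27025 genes in the table. That member was Hmgcs1. The letters CCAAT, bound by the SREBP partner NF-Y, stood in a window of 23 of 31 members (74.2%) and of 9 of 9 matched enzymes from squalene to cholesterol, against 41.1% of all genes. The shares of all genes cover every gene in the table, whether or not these cells express it. No share was taken over expressed genes alone, so the gap is not shown to be particular to these pathways. The E-box type letters TCACGTGA and the liver X receptor direct repeat 4 were found in 0 of 31 members, against 1.12% and 0.0407% of all genes. Each was searched as 1 strict pattern only, and variant spellings were not searched. The shorter core CACGTG was not counted, and the Abca1 window printed below holds it. The 0 of 31 therefore does not show that these windows, that of Abca1 included, lack an E-box or a liver X receptor element. No match overlapped another in the windows printed, and a match or its absence describes these letters in this window only. The window of Hmgcs1 is shown as the only one with the sterol element letters, Idi1 and Fads2 as enzymes with large rises, and Abca1 as an exporter that fell. The windows of Fads2 and Abca1 held none of the letters searched. Capitals mark the sterol element and CCAAT or its reverse complement.
Hmgcs1 (chr13:119690101-119690400, + strand): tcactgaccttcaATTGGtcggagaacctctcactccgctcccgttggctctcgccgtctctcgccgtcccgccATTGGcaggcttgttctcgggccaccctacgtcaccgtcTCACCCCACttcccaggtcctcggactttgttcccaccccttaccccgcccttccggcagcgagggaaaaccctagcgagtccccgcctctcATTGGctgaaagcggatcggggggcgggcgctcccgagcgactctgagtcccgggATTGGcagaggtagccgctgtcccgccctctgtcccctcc
Idi1 (chr13:8885356-8885655, + strand): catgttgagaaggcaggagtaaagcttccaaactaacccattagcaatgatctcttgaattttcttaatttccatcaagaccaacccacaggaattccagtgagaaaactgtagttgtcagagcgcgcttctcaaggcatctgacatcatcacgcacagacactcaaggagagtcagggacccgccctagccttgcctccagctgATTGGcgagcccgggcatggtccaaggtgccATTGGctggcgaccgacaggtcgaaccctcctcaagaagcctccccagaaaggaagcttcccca
Fads2 (chr19:10101454-10101753, - strand): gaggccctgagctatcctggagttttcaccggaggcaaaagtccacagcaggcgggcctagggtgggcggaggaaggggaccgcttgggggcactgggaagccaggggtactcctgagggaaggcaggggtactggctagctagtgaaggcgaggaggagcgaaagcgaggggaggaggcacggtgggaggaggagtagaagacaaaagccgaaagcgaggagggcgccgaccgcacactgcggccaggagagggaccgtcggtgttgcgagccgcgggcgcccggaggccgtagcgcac
Abca1 (chr4:53159846-53160145, - strand): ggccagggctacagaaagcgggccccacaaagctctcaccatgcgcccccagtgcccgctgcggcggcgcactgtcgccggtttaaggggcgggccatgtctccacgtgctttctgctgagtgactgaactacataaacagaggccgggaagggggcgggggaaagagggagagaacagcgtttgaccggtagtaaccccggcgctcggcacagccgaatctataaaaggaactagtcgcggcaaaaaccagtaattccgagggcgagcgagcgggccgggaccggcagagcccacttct

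All 39 members had enough counts to be tested, among 15935 genes tested in all. Library totals ran from 15900529 to 22427151 counts. A level below is a CPM value, which sets every library to 1 shared total with TMM factors, so levels are comparable between libraries for a gene but not between genes of unlike length. Log2 changes carry their standard error (SE) from the fit to all 12 libraries, with 3 libraries per group, and a gene was called at an edgeR adjusted p under 0.05. The labels do not say that replicates came from separate mice, so the p-values describe only how these samples vary, which may be technical. Senp1 itself stood at 56.4, 59.8 and 54.5 CPM in CKO, against 83.8, 85.3 and 77.8 CPM in WT at 0 h and at 69.95, 74.5 and 66.2 CPM in CKO, against 150.1, 171 and 164 CPM in WT at 48 h, so at each time the CKO libraries were all below the WT libraries for the targeted gene. The T-cell genes Cd3e, Cd3d, Cd8a, Cd8b1 and Lck summed to 1306 to 1346 CPM in CKO and 1512 to 1564 CPM in WT at 48 h, and to 2859 to 3077 CPM in CKO and 3036 to 3166 CPM in WT at 0 h. Markers of other cells were low beside them: 5 B-cell genes summed to 27.5 to 39.8 CPM in CKO and 22.3 to 48.3 CPM in WT at 48 h, and to 138 to 177 CPM in CKO and 204 to 395 CPM in WT at 0 h. The highest of these was WT replicate 1 at 0 h, at 395 CPM. Of 7 myeloid genes, Fcgr1 had 0 counts in all 48 h libraries, and their sums were 3.84 to 9.98 CPM in CKO and 4.4 to 6.44 CPM in WT at 48 h, against 41.1 to 72.6 CPM in CKO and 36.8 to 59.7 CPM in WT at 0 h. The 2 CD4 T-cell genes, Cd4 and Foxp3, summed to 40.3 to 56.5 CPM in CKO and 54.5 to 69.4 CPM in WT at 48 h. At 0 h they summed to 56.1 to 65.3 CPM in CKO and 53.3 to 73.5 CPM in WT. The 2 natural killer genes summed to 3.47 to 3.67 CPM in CKO and 2.34 to 2.58 CPM in WT at 48 h. At 0 h these reached 31.1 to 68.4 CPM in CKO and 31.6 to 44.4 CPM in WT.

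The first comparison asked how these genes responded to 48 h of stimulation in each genotype. The mRNA of most synthesis genes rose and that of the export-side genes fell. In CKO 33 of 39 members were called higher and 5 lower at 48 h, against 38.5% and 39.2% of all genes tested, and in WT 32 were called higher and 5 lower, against 38.7% and 39.1%. In either direction 77.7% of all genes tested were called in CKO and 77.9% in WT. The same 32 members rose and the same 5 fell in both genotypes. Among the 28 enzymes of synthesis 26 rose in CKO and 25 in WT, and Elovl5 fell in both. All 4 genes of the export side, Mylip, Abca1, Abcg1 and Nr1h2, fell in both genotypes. The name covers 1 liver X receptor and genes that export cholesterol or lower its uptake, so not all of them are exporters. Stard4 and Soat1, listed in the same role group, were called higher in both genotypes. The lists were chosen with earlier results of these data known. The median log2 change over the 28 enzymes was 2.02 in CKO and 1.99 in WT, and over the 4 export-side genes -2.17 and -1.63, while over all genes tested it was -0.04 and -0.03. These are bulk libraries, in which fewer cells of a type and less RNA per cell cannot be told apart. Most cell type markers were lower at 48 h too. All 5 CD8 T-cell genes, all 5 B-cell genes and both natural killer genes were called lower in both genotypes. So were 5 of 5 myeloid genes tested in CKO and 4 of 5 in WT, and 3 of 4 erythroid and platelet genes in CKO and 4 of 4 in WT. Of the 2 CD4 T-cell genes, Foxp3 was called lower in both genotypes. Cd4 was called in neither (-0.30, edgeR adjusted p = 0.0647 in CKO and -0.04, edgeR adjusted p = 0.783 in WT). The part of these cell types in the falls was not tested.

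**Figure D1:**
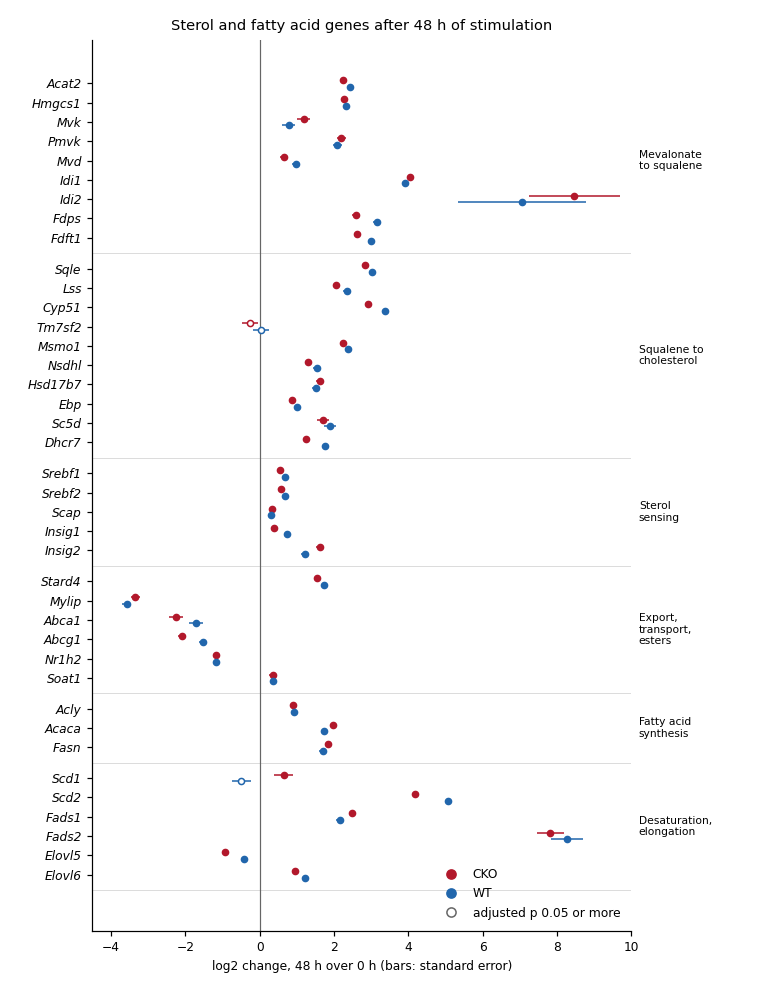
Log2 change at 48 h over 0 h for each of the 39 members, grouped by role, in CKO (red) and WT (blue), with the standard error as bars. Filled points passed the test. The enzymes lie to the right of 0 apart from Elovl5, Tm7sf2 in CKO and Scd1 in WT, and Mylip, Abca1, Abcg1 and Nr1h2 lie to the left.

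The enzymes from acetyl-CoA to squalene all rose, 9 of 9 in each genotype. Idi1, which isomerises isopentenyl diphosphate, the building block of isoprenoids, was at 204, 210.4 and 218 CPM in CKO at 48 h, against 12.3, 13.7 and 12.3 CPM in CKO at 0 h. The WT libraries stood at 159, 185 and 179 CPM in WT at 48 h, against 12.9, 11.8 and 9.98 CPM in WT at 0 h. Every stimulated library was therefore far above every unstimulated one, with log2 changes of 4.04 ± 0.0863 in CKO and 3.91 ± 0.0865 in WT (edgeR adjusted p = 2.69e-18 and 3.27e-18). Fdft1, squalene synthase, which commits farnesyl diphosphate to sterols, was at 110, 110.1 and 107 CPM in CKO at 48 h, against 18.6, 16.8 and 17.8 CPM in CKO at 0 h, and at 128, 119 and 115 CPM in WT at 48 h, against 14.2, 16.3 and 14.5 CPM in WT at 0 h (log2 changes 2.62 ± 0.0746 and 3.0 ± 0.0751). Fdps, which makes farnesyl diphosphate, had 2.59 ± 0.115 and 3.15 ± 0.116. The early enzymes were close together: Acat2, the cytosolic thiolase that joins acetyl-CoA, had 2.25 ± 0.087 in CKO and 2.43 ± 0.0868 in WT, Hmgcs1, which makes HMG-CoA, 2.27 ± 0.0647 and 2.31 ± 0.0648, and the kinase Pmvk 2.2 ± 0.124 and 2.09 ± 0.122. The smallest rises of the 9 were those of mevalonate kinase, Mvk (1.18 ± 0.171 and 0.78 ± 0.167), and of the decarboxylase Mvd (0.64 ± 0.105 and 0.98 ± 0.104).

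Idi2, the other isopentenyl diphosphate isomerase, was almost unread before stimulation. It had 938 counts over the CKO libraries at 48 h, against 2 at 0 h, and 201 counts over the WT libraries at 48 h, against 1 at 0 h. From the summed counts it was 413-fold higher in CKO (95% exact interval 114 to 3417) and 180.2-fold higher in WT (32.0 to 7152), intervals that cover counting error only. Idi2 lies close to Idi1 on chromosome 13, and reads shared by these related genes could have been counted at either.

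From squalene to cholesterol 9 of 10 enzymes rose in each genotype. Cyp51, the lanosterol demethylase, was at 455, 439 and 451 CPM in CKO at 48 h, against 56.4, 68.5 and 55.3 CPM in CKO at 0 h. The WT libraries stood at 434, 447 and 445 CPM in WT at 48 h, against 44, 43.2 and 41.3 CPM in WT at 0 h. Its rise was 2.9 ± 0.0693 in CKO and 3.37 ± 0.0701 in WT (edgeR adjusted p = 1.47e-17 and 2.54e-18). Sqle, squalene epoxidase, which puts the first oxygen on the chain, was at 148, 139 and 143 CPM in CKO at 48 h, against 19.3, 20.02 and 21.3 CPM in CKO at 0 h, and at 152, 137 and 139.6 CPM in WT at 48 h, against 17, 19 and 16.9 CPM in WT at 0 h. The libraries of the times did not overlap, and the log2 changes were 2.83 ± 0.0714 in CKO and 3.01 ± 0.0717 in WT. Lanosterol synthase, Lss, had 2.05 ± 0.0872 and 2.34 ± 0.0866, and Msmo1, the oxidase that starts the removal of the methyl groups next to the hydroxyl group, 2.25 ± 0.0793 and 2.36 ± 0.079. The log2 changes of the other later steps that rose lay between those of Sc5d and Ebp: 1.7 ± 0.169 in CKO and 1.89 ± 0.165 in WT for the desaturase Sc5d, and 0.88 ± 0.0992 and 1.01 ± 0.0984 for the isomerase Ebp. Tm7sf2, a sterol reductase, did not pass the test in either genotype (-0.26 ± 0.226 with edgeR adjusted p = 0.295 in CKO, 0.04 ± 0.221 with 0.88 in WT).

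Levels were set against each other per kilobase of annotated exon, since longer mRNAs give more reads. On that scale Cyp51 and Hmgcs1 stood highest among the 19 sterol enzymes at 48 h: Cyp51 at 102 ± 1.85 CPM per kb in CKO and 100.1 ± 1.62 in WT (mean ± SD, n = 3), and Hmgcs1 at 97.8 ± 0.967 and 91.7 ± 2.45. Idi1 followed at 60.1 ± 1.93 CPM per kb in CKO and 49.7 ± 3.77 in WT. At 0 h Idi1 stood at 3.65 ± 0.232 CPM per kb in CKO and 3.3 ± 0.425 in WT, below Hmgcs1, Cyp51, Mvd, Ebp and Acat2 among others. The lowest sterol enzyme at 48 h was Tm7sf2, at 1.16 ± 0.104 CPM per kb in CKO and 1.39 ± 0.155 in WT. Exon lengths came from a GRCm38 annotation that counts every annotated exon, so the scale is approximate. In it Hmgcs1, Idi1, Fdps, Fdft1, Lss, Cyp51, Tm7sf2, Srebf1, Scap, Scd2 and Elovl6 share exon bases with another gene, and the use of strand in counting is not stated, so some of their counts could come from that gene.

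**Figure D2:**
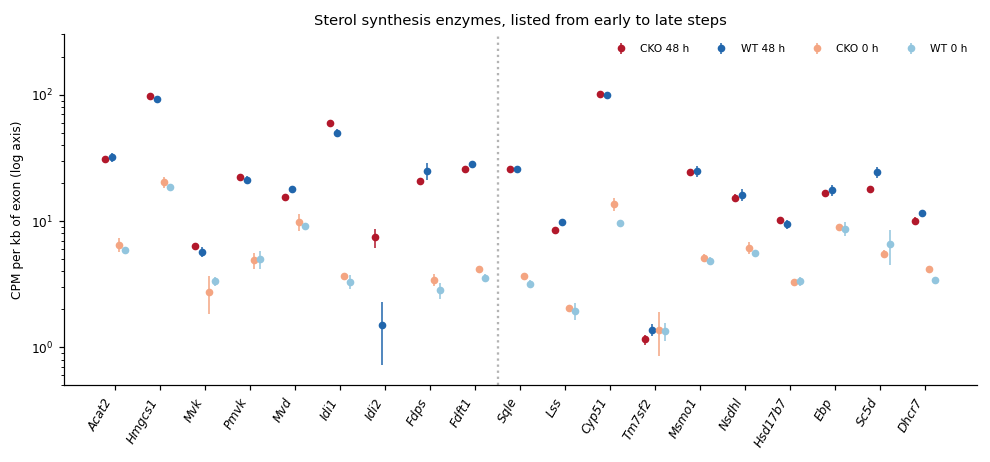
Mean level per kilobase of exon (log axis, bars SD, n = 3) of the 19 sterol enzymes, listed from early to late steps, with the dotted line between the enzymes that make squalene and those that use it. The 48 h groups lie above the 0 h groups for each enzyme but Tm7sf2, and Idi2 at 0 h, with 2 counts in CKO and 1 in WT, is not drawn.

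The 5 genes grouped under sterol sensing, which are SREBP genes and their regulators, were all called higher in both genotypes. Their medians were 0.55 in CKO and 0.68 in WT. Srebf2, the SREBP that chiefly drives sterol synthesis, was at 352, 352 and 366 CPM in CKO at 48 h, against 237, 250.3 and 229 CPM in CKO at 0 h. The WT libraries stood at 331, 367 and 356 CPM in WT at 48 h, against 231, 214 and 218 CPM in WT at 0 h. Srebf1, the SREBP gene tied more to fatty acids, was at 106, 104 and 109 CPM in CKO at 48 h, against 69.1, 78.9 and 70.2 CPM in CKO at 0 h, and at 121, 112 and 116 CPM in WT at 48 h, against 76.2, 69.1 and 72.1 CPM in WT at 0 h. For both genes the times did not overlap, and Srebf2 changed by 0.58 ± 0.0588 in CKO and 0.67 ± 0.0588 in WT, Srebf1 by 0.55 ± 0.0662 and 0.68 ± 0.0658. Scap, which escorts SREBPs to the Golgi, changed by 0.34 ± 0.0644 and 0.30 ± 0.0641. Insig1 and Insig2 hold Scap back in the endoplasmic reticulum. Insig1 was at 173, 150.5 and 169 CPM in CKO at 48 h, against 116, 128 and 130.3 CPM in CKO at 0 h, and at 175, 178 and 159 CPM in WT at 48 h, against 112, 107 and 88.5 CPM in WT at 0 h. Insig2 was at 28.6, 26.1 and 26.9 CPM in CKO at 48 h, against 8.35, 8.89 and 9.19 CPM in CKO at 0 h, and at 28.6, 28 and 26.3 CPM in WT at 48 h, against 11, 13.3 and 11.2 CPM in WT at 0 h. Insig2 had the largest log2 change of the 5 (1.63 ± 0.107 in CKO, 1.22 ± 0.103 in WT), while Insig1 rose by 0.39 ± 0.0823 and 0.73 ± 0.0824.

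The export side was read next. Mylip, a liver X receptor target that marks lipoprotein receptors for destruction, was at 5.76, 6.8 and 4.95 CPM in CKO at 48 h, against 61.6, 65.7 and 50.6 CPM in CKO at 0 h. The WT libraries stood at 6.39, 5.83 and 6.03 CPM in WT at 48 h, against 64.2, 80.5 and 72.8 CPM in WT at 0 h. It fell by 3.35 ± 0.129 in CKO and 3.57 ± 0.125 in WT on the log2 scale (edgeR adjusted p = 7.14e-15 and 2.05e-15), the deepest fall of any member. Abca1, the transporter that loads cholesterol onto apolipoproteins, was at 10.3, 17.6 and 10.4 CPM in CKO at 48 h, against 60.3, 59.9 and 61.4 CPM in CKO at 0 h, and at 13.7, 20.3 and 16.8 CPM in WT at 48 h, against 63.7, 54.3 and 49.5 CPM in WT at 0 h. Abcg1, which passes cholesterol to mature lipoprotein particles, was at 27.9, 38.7 and 27.1 CPM in CKO at 48 h, against 139.5, 131 and 127 CPM in CKO at 0 h, and at 31.5, 35.1 and 35.3 CPM in WT at 48 h, against 99.1, 101 and 95.1 CPM in WT at 0 h. For both transporters each stimulated library was below each unstimulated one of its genotype, with log2 changes for Abca1 of -2.25 ± 0.196 in CKO and -1.72 ± 0.189 in WT, and for Abcg1 of -2.09 ± 0.101 and -1.54 ± 0.101. Nr1h2, the liver X receptor beta itself, averaged 46.8 ± 1.39 CPM in CKO at 48 h and 106 ± 9.48 CPM at 0 h (SD, n = 3), and 50.4 ± 4.21 CPM in WT at 48 h and 114 ± 3.28 CPM at 0 h. Its change was -1.18 ± 0.075 in CKO and -1.18 ± 0.0743 in WT.

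Genes that move or store sterol inside the cell went the other way from the exporters. Stard4, a cytosolic carrier of cholesterol, was at 195, 170.5 and 189 CPM in CKO at 48 h, against 60.4, 63.8 and 67.9 CPM in CKO at 0 h, and at 221, 232 and 234 CPM in WT at 48 h, against 67.4, 68.6 and 72.8 CPM in WT at 0 h, without overlap between the times (1.53 ± 0.0659 in CKO, 1.72 ± 0.0652 in WT). Soat1, which esterifies cholesterol for storage, averaged 68.5 ± 4.14 CPM in CKO at 48 h and 53.4 ± 4.38 CPM at 0 h (SD, n = 3), a change of 0.36 ± 0.0967, edgeR adjusted p = 0.00251. In WT its change was 0.37 ± 0.0964, edgeR adjusted p = 0.00191.

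**Figure D3:**
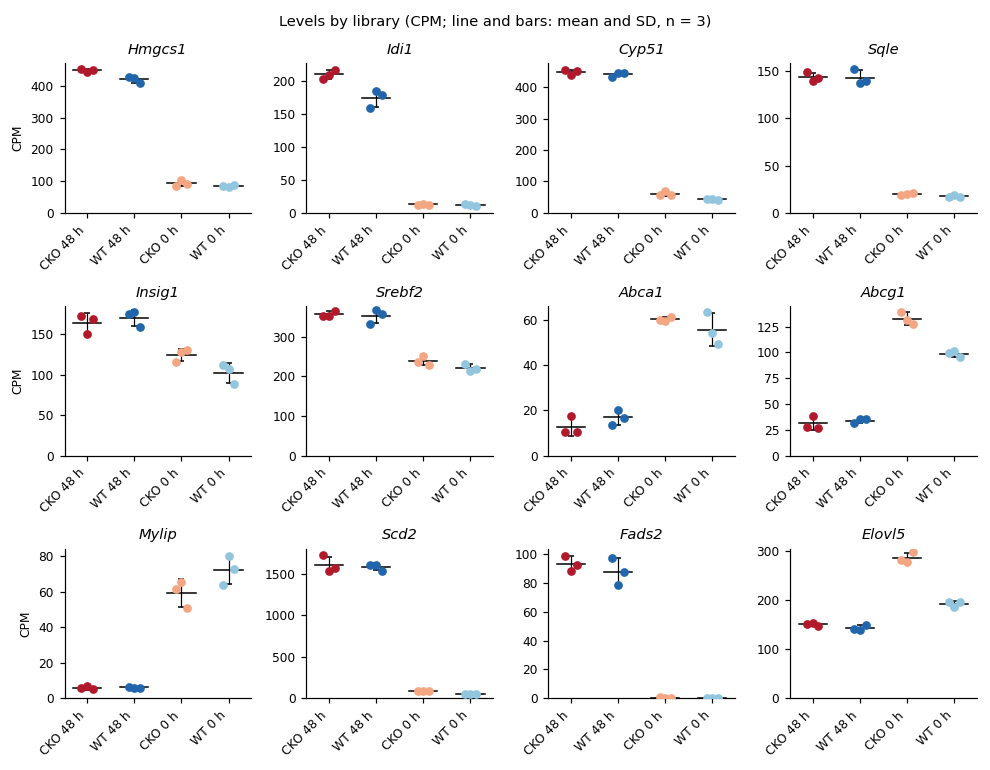
CPM of 12 members in each library, with group mean and SD (n = 3). The 48 h libraries are above the 0 h libraries for the 6 sterol synthesis and sensing genes, Scd2 and Fads2, and below them for Abca1, Abcg1, Mylip and Elovl5.

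To set synthesis against export in each library, the mean of log2(CPM + 1) was taken over the 28 enzymes and over the 4 export-side genes, as a description with no test. The enzyme mean minus the export mean was 2.42, 2.02 and 2.43 log2 units in the CKO libraries at 48 h and 2.11, 2.02 and 2.0 in the WT libraries at 48 h. At 0 h it was -1.95, -1.8 and -1.76 in CKO and -1.87, -1.94 and -1.89 in WT, so each of the 6 libraries at 48 h was above each of the 6 at 0 h. The sign of the difference carries no meaning, since it sets CPM of unlike genes against each other, and it is read only between libraries. Most of these genes were already called in opposite directions above, so the separation of the times adds no further evidence. The 28 enzymes together held 5345 ± 166 CPM in CKO and 5224 ± 52.1 CPM in WT at 48 h (SD, n = 3), and 1343 ± 54 CPM in CKO and 1196 ± 48.8 CPM in WT at 0 h. The 4 export-side genes held 96.7 ± 12.9 CPM in CKO and 108 ± 1.3 CPM in WT at 48 h, and 358 ± 20.4 CPM in CKO and 341 ± 6.46 CPM in WT at 0 h. CKO replicate 2 stood nearest to WT at 48 h, with the highest export level of its group.

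**Figure D4:**
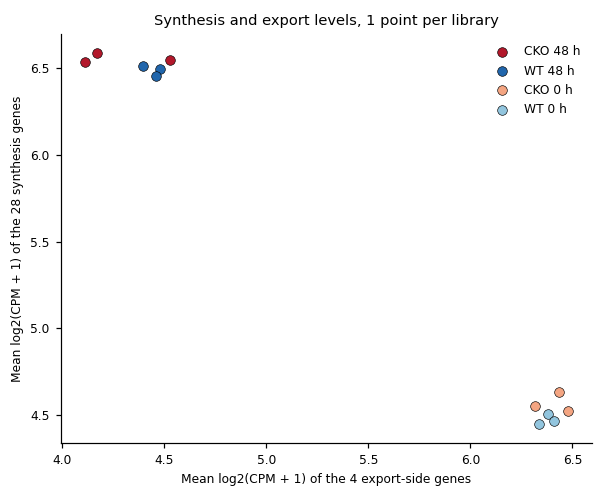
Each point is 1 library, placed by the mean log2(CPM + 1) of the 4 export-side genes (x) and of the 28 synthesis genes (y). The 48 h libraries lie at the upper left and the 0 h libraries at the lower right, with CKO and WT close together within each time.

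The mRNA of all 3 enzymes of fatty acid synthesis rose in both genotypes. Fasn, the fatty acid synthase, was at 508, 482 and 522 CPM in CKO at 48 h, against 134, 157 and 130 CPM in CKO at 0 h, and at 406, 518 and 498 CPM in WT at 48 h, against 147, 158 and 135 CPM in WT at 0 h. Acaca, acetyl-CoA carboxylase, which makes its substrate, was at 154, 160.5 and 164 CPM in CKO at 48 h, against 37.9, 43 and 40.1 CPM in CKO at 0 h, and at 108, 140.1 and 138 CPM in WT at 48 h, against 39.9, 39.1 and 36.9 CPM in WT at 0 h. The times did not overlap, and Fasn rose by 1.84 ± 0.0897 in CKO and 1.69 ± 0.0894 in WT, Acaca by 1.99 ± 0.0849 and 1.74 ± 0.0849. Acly, which releases acetyl-CoA from citrate for both chains, rose by 0.88 ± 0.0582 and 0.94 ± 0.0581.

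Desaturases and elongases, which shape the fatty acids once made, split. Scd2, a stearoyl-CoA desaturase that makes monounsaturated fatty acids, was at 1724, 1537 and 1578 CPM in CKO at 48 h, against 88.2, 93.7 and 83.1 CPM in CKO at 0 h. The WT libraries stood at 1613, 1609.7 and 1539 CPM in WT at 48 h, against 50.3, 46.5 and 45.8 CPM in WT at 0 h. By p it ranked 7 in CKO and 2 in WT among the 15935 genes tested (4.19 ± 0.0626, edgeR adjusted p = 8.95e-20 in CKO; 5.06 ± 0.0638, edgeR adjusted p = 1.75e-20 in WT), and at 48 h it had the highest level per kilobase of any member, 295 ± 18 CPM per kb in CKO and 290.5 ± 7.61 in WT. Fads2, a desaturase of polyunsaturated fatty acids, was at 99, 88.2 and 92.7 CPM in CKO at 48 h, against 0.798, 0.181 and 0.243 CPM in CKO at 0 h, and at 97.1, 78.4 and 87.7 CPM in WT at 48 h, against 0.343, 0.152 and 0.356 CPM in WT at 0 h. Close to unread at 0 h, with 20 counts over the CKO and 15 over the WT libraries, it rose by 7.82 ± 0.37 in CKO and 8.27 ± 0.423 in WT. Fads1, its neighbour on chromosome 19 and the partner desaturase, was at 48.7, 46 and 46.8 CPM in CKO at 48 h, against 8.41, 8.1 and 8.77 CPM in CKO at 0 h, and at 51.2, 50.4 and 49.97 CPM in WT at 48 h, against 9.95, 12.5 and 11.5 CPM in WT at 0 h (2.48 ± 0.0942 in CKO and 2.15 ± 0.0891 in WT). The elongases went apart. Elovl6, which lengthens saturated and monounsaturated chains, was at 72.5, 61.2 and 69.4 CPM in CKO at 48 h, against 35.7, 34.2 and 34.3 CPM in CKO at 0 h, and at 57.6, 55.3 and 58.9 CPM in WT at 48 h, against 23.7, 24.4 and 25 CPM in WT at 0 h. Elovl5, which lengthens polyunsaturated chains, was at 151, 154 and 147 CPM in CKO at 48 h, against 282, 277 and 297 CPM in CKO at 0 h, and at 141, 139 and 149.9 CPM in WT at 48 h, against 195, 186 and 195 CPM in WT at 0 h. So Elovl6 rose (0.96 ± 0.0743 in CKO and 1.23 ± 0.0758 in WT) and Elovl5 fell (-0.92 ± 0.056 and -0.42 ± 0.0562), each without overlap between the times.

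Scd1, the desaturase next to Scd2 on chromosome 19, was the least steady member. It was at 111, 73.1 and 76.2 CPM in CKO at 48 h, against 59, 53 and 54.9 CPM in CKO at 0 h, and at 88.3, 61.5 and 62.2 CPM in WT at 48 h, against 134, 79.8 and 83.6 CPM in WT at 0 h. In each of the 4 groups replicate 1 was the highest library, and in WT the times overlapped. The change was 0.64 ± 0.255, edgeR adjusted p = 0.0448 in CKO and -0.49 ± 0.25, edgeR adjusted p = 0.103 in WT. The CKO call was lost without WT replicate 2 at 48 h (0.0551), WT replicate 3 at 48 h (0.0549), CKO replicate 1 at 0 h (0.0751), CKO replicate 2 at 0 h (0.105), CKO replicate 3 at 0 h (0.097), CKO replicate 1 at 48 h (0.149) or CKO replicate 3 at 48 h (0.0508). It was also lost with either other scaling, with the stricter filter and with no count filter (edgeR adjusted p from 0.0507 to 0.0717).

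Another 36 genes of the same pathways, none of them members, were read beside these, of which 34 could be tested. In CKO 20 rose and 10 fell, which is 88.2% called where 77.7% of all genes tested were, and in WT 19 rose and 9 fell, which is 82.4% where 77.9% were, at medians of 0.33 and 0.22. Tmem97, an endoplasmic reticulum protein of cholesterol handling, rose by 3.46 ± 0.0936 in CKO and 4.01 ± 0.103 in WT, and Erg28, known in yeast as a scaffold of sterol demethylation, by 2.38 ± 0.0832 and 2.44 ± 0.0813. Slc25a1, which carries citrate out of mitochondria, rose by 1.71 ± 0.11 and 1.74 ± 0.107. Against them Acss2, which makes acetyl-CoA from acetate, changed by -2.28 ± 0.076 in CKO and -1.92 ± 0.075 in WT, and Abca7, a transporter related to Abca1, by -2.43 ± 0.0689 and -2.5 ± 0.0682. Lpcat3, a liver X receptor target that puts polyunsaturated chains into phospholipids, rose by 0.98 ± 0.0756 and 1.05 ± 0.0753, unlike the 4 export-side genes. The largest edgeR adjusted p among these changes was 4.26e-10.

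The second comparison set CKO against WT before stimulation. Among genes that modify fatty acids Scd2, Elovl5 and Elovl6 were higher in CKO and Fads1 was lower. Among sterol genes Cyp51, Dhcr7, Insig1 and the exporter Abcg1 were higher in CKO and Insig2 was lower. In all 7 members were called higher, against 4.1% of all genes tested, and 2 lower, against 3.38%, so that 9 of 39 (23.1%) were called where 7.48% of all genes were. The libraries of the genotypes did not overlap for 9 members higher in CKO and 3 lower, where 12% and 12.6% of all genes did not. Of 34 other pathway genes tested, 5 were called higher in CKO (Acacb, Acss2, Elovl7, Lpin1 and Tmem97) and Ggps1 lower.

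Scd2 showed the largest called difference. It was at 88.2, 93.7 and 83.1 CPM in CKO, against 50.3, 46.5 and 45.8 CPM in WT at 0 h, a level 1.86 times that of WT (0.89 ± 0.0655, edgeR adjusted p = 2.17e-08). Elovl5 was at 282, 277 and 297 CPM in CKO, against 195, 186 and 195 CPM in WT (0.57 ± 0.0559, edgeR adjusted p = 1.37e-06), and Elovl6 at 35.7, 34.2 and 34.3 CPM in CKO, against 23.7, 24.4 and 25 CPM in WT (0.51 ± 0.078, edgeR adjusted p = 0.000279). For all 3 genes the lowest CKO library was above the highest WT library. Cyp51 was at 56.4, 68.5 and 55.3 CPM in CKO, against 44, 43.2 and 41.3 CPM in WT (0.49 ± 0.0725, edgeR adjusted p = 0.000233), also without overlap. These 4 calls were kept in each of the 20 alternatives. The 5 B-cell genes summed to 138 to 177 CPM in CKO and 204 to 395 CPM in WT at 0 h, though none of the 5 was called. Among the CD8 T-cell genes Cd8a was called lower in CKO at 0 h (-0.19, edgeR adjusted p = 0.0423). The part of these cell markers in the differences was not tested. Without WT replicate 1 at both times the differences at 0 h were 0.95 for Scd2, 0.59 for Elovl5, 0.50 for Elovl6 and 0.51 for Cyp51.

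The other calls at 0 h were closer to the threshold. Abcg1 was at 139.5, 131 and 127 CPM in CKO, against 99.1, 101 and 95.1 CPM in WT (0.43 ± 0.0965, edgeR adjusted p = 0.0104), every CKO library above every WT one, and the call was lost without WT replicate 3 at 0 h (0.0518) or CKO replicate 1 at 0 h (0.0552). Dhcr7, the last reductase before cholesterol, was at 23.8, 25.9 and 23.7 CPM in CKO, against 21.2, 19.3 and 19.7 CPM in WT (0.29 ± 0.0835, edgeR adjusted p = 0.0394), and was lost without WT replicate 2 at 0 h (0.134), WT replicate 3 at 0 h (0.116), CKO replicate 1 at 0 h (0.0731), CKO replicate 2 at 0 h (0.122) or CKO replicate 3 at 0 h (0.0733). Both stood above WT in each CKO library. Insig1 was at 116, 128 and 130.3 CPM in CKO, against 112, 107 and 88.5 CPM in WT (0.28 ± 0.083, edgeR adjusted p = 0.0426), without overlap, and was lost without WT replicate 2 at 0 h (0.0658), WT replicate 3 at 0 h (0.217), CKO replicate 2 at 0 h (0.115) or CKO replicate 3 at 0 h (0.167). Insig2 ran the opposite way, at 8.35, 8.89 and 9.19 CPM in CKO, against 11, 13.3 and 11.2 CPM in WT (-0.43 ± 0.112, edgeR adjusted p = 0.0221), and was lost without WT replicate 2 at 0 h (0.117) or CKO replicate 1 at 0 h (0.0871). Fads1 was lower in CKO, at 8.41, 8.1 and 8.77 CPM in CKO, against 9.95, 12.5 and 11.5 CPM in WT (-0.43 ± 0.101, edgeR adjusted p = 0.0125), and was lost without WT replicate 2 at 0 h (0.0715). Fads1 and Insig2 were below WT in each CKO library. Scd1 was at 59, 53 and 54.9 CPM in CKO, against 134, 79.8 and 83.6 CPM in WT, also without overlap, and did not pass (-0.83 ± 0.254, edgeR adjusted p = 0.0974), while DESeq2 called it lower in CKO (-0.83, adjusted p = 0.0224). The adjusted p in brackets after a replicate number is that of edgeR without that library. Srebf1 and Srebf2 did not pass (0.01 ± 0.0669 with edgeR adjusted p = 0.98, and 0.11 ± 0.0591 with 0.299). Members called higher were 4 without WT replicate 3 at 0 h, and members called lower were 0 without WT replicate 2 at 0 h and 1 without CKO replicate 1 at 0 h.

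The third comparison set CKO against WT after 48 h. The isomerases Idi1 and Idi2 and the carboxylase Acaca were called higher in CKO, and the sterol carrier Stard4 lower. These 4 of 39 members (10.3%) stand beside 4.54% of all genes tested, with 3 higher where 2.35% of all genes were and 1 lower where 2.19% were. None of them was among the 9 members called at 0 h. Idi2 was at 13.8, 19.6 and 16.9 CPM in CKO, against 2.49, 5.41 and 2.27 CPM in WT (2.31 ± 0.275, edgeR adjusted p = 4.22e-05), a level 4.96 times that of WT, and the call was kept in each of the 20 alternatives. Stard4 was at 195, 170.5 and 189 CPM in CKO, against 221, 232 and 234 CPM in WT (-0.31 ± 0.0638, edgeR adjusted p = 0.00629), every CKO library below every WT one, and was lost without CKO replicate 2 at 48 h (0.0527). Idi1 was at 204, 210.4 and 218 CPM in CKO, against 159, 185 and 179 CPM in WT (0.27 ± 0.073, edgeR adjusted p = 0.0366), without overlap. It was lost without WT replicate 1 at 48 h (0.112), WT replicate 3 at 48 h (0.0746), CKO replicate 1 at 0 h (0.051), CKO replicate 1 at 48 h (0.0872), CKO replicate 2 at 48 h (0.0903) or CKO replicate 3 at 48 h (0.194). Acaca was at 154, 160.5 and 164 CPM in CKO, against 108, 140.1 and 138 CPM in WT (0.31 ± 0.0811, edgeR adjusted p = 0.0321), also without overlap, and was lost without WT replicate 1 at 48 h (0.101), CKO replicate 1 at 48 h (0.0787), CKO replicate 2 at 48 h (0.0897) or CKO replicate 3 at 48 h (0.17). Members called higher were 1 without WT replicate 1, CKO replicate 1 or CKO replicate 3 at 48 h, and members called lower were 2 without WT replicate 1 or 2 at 0 h.

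Most enzymes did not pass the test between the genotypes at 48 h. The median log2 change of the 28 enzymes was 0.02, beside -0.01 for all genes tested, and 5 members were higher and 9 lower in CKO without overlap, where 11.5% and 12.2% of all genes were. Fdps was at 91, 84.7 and 86 CPM in CKO, against 124, 96.1 and 96.6 CPM in WT (-0.28 ± 0.101, edgeR adjusted p = 0.149), and Sc5d at 88.4, 86.3 and 87.7 CPM in CKO, against 105, 128 and 122 CPM in WT (-0.43 ± 0.158, edgeR adjusted p = 0.183). Each of these had every CKO library below every WT one but did not pass. Sc5d was called lower without WT replicate 1 at 0 h or WT replicate 2 at 0 h (edgeR adjusted p = 0.0374 and 0.00245). Scd2, the member with the largest called difference at 0 h, was at 1724, 1537 and 1578 CPM in CKO, against 1613, 1609.7 and 1539 CPM in WT at 48 h (0.02 ± 0.0609, edgeR adjusted p = 0.907), with overlap. Elovl5 was at 151, 154 and 147 CPM in CKO, against 141, 139 and 149.9 CPM in WT (0.07 ± 0.0563, edgeR adjusted p = 0.606) and Cyp51 at 455, 439 and 451 CPM in CKO, against 434, 447 and 445 CPM in WT (0.02 ± 0.0667, edgeR adjusted p = 0.925), and their libraries overlapped too. Elovl6 was at 72.5, 61.2 and 69.4 CPM in CKO, against 57.6, 55.3 and 58.9 CPM in WT at 48 h (0.24 ± 0.072, edgeR adjusted p = 0.0624), without overlap. It did not pass, but was called higher in CKO without CKO replicate 2 at 48 h (edgeR adjusted p = 0.0255), with library totals only (0.0431) and by DESeq2 (adjusted p = 0.0376). Of the export side, Abca1 was at 10.3, 17.6 and 10.4 CPM in CKO, against 13.7, 20.3 and 16.8 CPM in WT (-0.41 ± 0.206, edgeR adjusted p = 0.357), where CKO replicate 2 was the highest of its group. Without that library Abca1 was called lower in CKO (-0.71, edgeR adjusted p = 0.0101). The same library had the highest sum of the 7 myeloid genes in its group, 9.98 CPM against 5.2 and 3.84 CPM. The part of myeloid cells in the Abca1 level was not tested. Among the CD8 T-cell genes Cd8a (-0.36, edgeR adjusted p = 0.00048) and Cd8b1 (-0.26, edgeR adjusted p = 0.0387) were called lower in CKO at 48 h. Their part in the differences between genotypes was not tested.

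**Figure D5:**
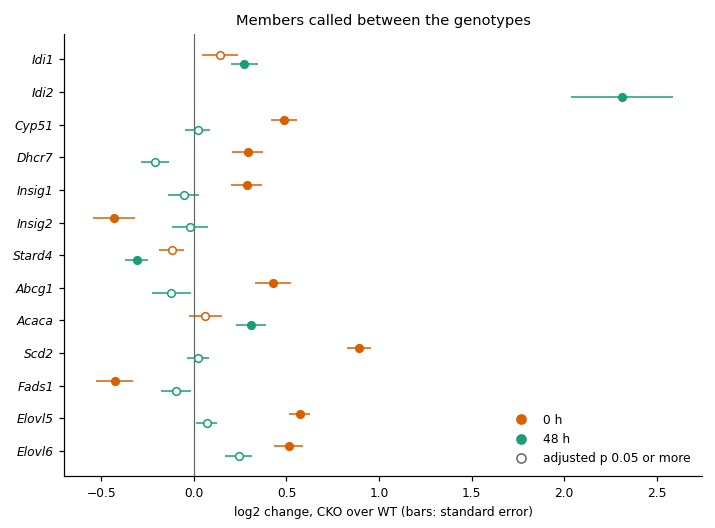
Log2 change of CKO over WT at 0 h (orange) and 48 h (green), with the standard error as bars, for the 13 members called in either comparison. Filled points passed the test. No member has both points filled, and Idi2 at 0 h, with 3 counts in 6 libraries, is not drawn.

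The responses of CKO and WT were then compared directly, as CKO response minus WT response. It was called lower for 4 members and higher for none, against 0.772% and 0.609% of all genes tested, or 1.38% in either direction. The 4 were Scd2 (-0.87 ± 0.0894, edgeR adjusted p = 3.21e-05), Elovl5 (-0.50 ± 0.0793, edgeR adjusted p = 0.0018), Cyp51 (-0.47 ± 0.0985, edgeR adjusted p = 0.0186) and Dhcr7 (-0.50 ± 0.112, edgeR adjusted p = 0.0277). All 4 were also higher in CKO at 0 h, and both measures share the 0 h libraries. Scd2 and Cyp51 rose in both genotypes with a smaller log2 rise in CKO, Dhcr7 averaged 58.5 ± 4.29 CPM in CKO and 67.7 ± 3.07 CPM in WT at 48 h and 24.5 ± 1.22 CPM in CKO and 20.03 ± 1 CPM in WT at 0 h (SD, n = 3), and Elovl5 fell more steeply in CKO. The Cyp51 call was lost without WT replicate 3 at 0 h (0.0603). That of Dhcr7 was lost without WT replicate 2 at 0 h (0.0789), WT replicate 3 at 0 h (0.0674), WT replicate 2 at 48 h (0.0559), WT replicate 3 at 48 h (0.077), CKO replicate 2 at 0 h (0.0608) or CKO replicate 3 at 48 h (0.0872), and without WT replicate 3 at 0 h 2 members were called. At an unadjusted p under 0.05, 3 members had a larger and 11 a smaller response in CKO, against 5.87% and 6.95% of all genes tested. DESeq2 called 0 members larger and 5 smaller, against 1.39% and 1.55% of the 14027 genes to which it gave an adjusted p. Abcg1 did not pass (-0.55 ± 0.142, edgeR adjusted p = 0.0706), but was called lower without CKO replicate 2 at 48 h or WT replicate 1 at 48 h (edgeR adjusted p = 0.00105 and 0.0393). DESeq2 also called Abcg1 lower (-0.54, adjusted p = 0.0248). Abca1 did not pass (-0.53 ± 0.273, edgeR adjusted p = 0.471), but was called lower without CKO replicate 2 at 48 h (edgeR adjusted p = 0.0343). Fdps did not pass (-0.56 ± 0.163, edgeR adjusted p = 0.114), but was called lower without WT replicate 1 at 0 h (edgeR adjusted p = 0.0436). Insig1 did not pass (-0.34 ± 0.116, edgeR adjusted p = 0.188). With no count filter Abcg1, Abca1, Fdps, Insig1 and Fdft1 were called lower too (edgeR adjusted p = 5.41e-05, 0.0471, 0.000821, 0.0249 and 0.0409). Of the other pathway genes Tmem97 (-0.55 ± 0.139, edgeR adjusted p = 0.0434) and Lpin1, a phosphatidate phosphatase (-0.49 ± 0.101, edgeR adjusted p = 0.0174), were called lower, and both were higher in CKO at 0 h.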

How the data were processed

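RNA of spleen CD8+ T cells was sequenced from libraries made with a stranded mRNA kit, per the labels' protocols. The authors deposited raw counts per Ensembl gene ID for 12 libraries, with 15900529 to 22427151 counts each. The submitters' processing notes name cutadapt, HISAT2 2.2.1, DESeq2 and the build GRCm39, with no role given. The sources used here do not give the counting program, annotation or strand setting, which decide how reads of overlapping or related genes were assigned. Symbols were matched to 52073 of 56691 IDs. IDs without a symbol held 0.249% of the counts and stayed in library totals and tests.

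The counts were fitted in edgeR 4.0.16 (R 4.3.3, limma 3.58.1) with TMM scaling, filterByExpr and a robust quasi-likelihood test over 4 groups of 3 libraries, which left 15935 genes and 8 residual degrees of freedom. P-values were adjusted by Benjamini-Hochberg over all genes tested, per contrast, for 5 contrasts. The fit was tested on simulated data with known changes. Tables and figures used matplotlib 3.10.9 and pandas 2.3.3 under Python 3.11.15, with SciPy 1.17.1 and NumPy 2.4.6. DESeq2 1.42.0, other scalings, other filters, a replicate block and fits without single libraries were the alternatives, and leaving out WT replicate 1 at both times was added after seeing the data.

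The members and lists were chosen with earlier results of these data known. Values in every library were given for members with the smallest adjusted p in their role, members called between genotypes or in the difference of responses, members with few counts and a set of regulators, exporters and key enzymes. Fdps and Sc5d at 48 h, Fdps in the difference of responses, and the promoter windows of Idi1 and Fads2, were picked after their values were seen. Counting intervals cover counting error only.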

Additional observations from a re-analysis of the deposited data

Results flagged for a closer look

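For 4 genes the response to stimulation differed between the genotypes by the test of the difference itself, given as CKO response minus WT response on the log2 scale, with 3 libraries in each of the 4 groups. Scd2 had -0.87, with responses of 4.19 ± 0.0626 in CKO and 5.06 ± 0.0638 in WT. Elovl5 had -0.50, with -0.92 ± 0.056 in CKO and -0.42 ± 0.0562 in WT. Cyp51 had -0.47, with 2.9 ± 0.0693 in CKO and 3.37 ± 0.0701 in WT. Dhcr7 had -0.50, with 1.26 ± 0.079 in CKO and 1.76 ± 0.0793 in WT. Of 19 alternatives the call was lost in 6 for Dhcr7, in 1 for Cyp51 and in 0 for Scd2 and Elovl5. All 4 genes were called higher in CKO at 0 h, and none of them was called between genotypes at 48 h. The 5 B-cell genes summed to 138 to 177 CPM in CKO and 204 to 395 CPM in WT at 0 h, none of them called. Among the CD8 T-cell genes Cd8a was called lower in CKO at 0 h (-0.19, edgeR adjusted p = 0.0423). The part of these cell markers in the differences of responses was not tested.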

How the results depend on the processing

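Of the gene results for the responses to stimulation, 1508 kept their direction and side of the threshold, 11 lost the call (all Scd1 in CKO) and 1 gained it, and of those between genotypes and for the difference of responses 560 did, 38 lost it and 32 gained it. None reversed. With no count filter 653 genes and 4 members were called lower in CKO at 48 h, and the difference of responses called 223 genes higher and 353 lower, with 9 members lower. With only the groups compared, 0 members were called lower in CKO at 0 h and 2 at 48 h, and the calls of Dhcr7 at 0 h and Acaca at 48 h were lost. Without WT replicate 1 at both times 1 member was called higher and 3 lower at 48 h, and 227 genes had a smaller response in CKO. DESeq2 called 195 genes with a larger and 217 with a smaller response. The cause was not tested.

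Over all groups, same-numbered libraries deviated together only weakly (r from -0.011 to 0.162, other pairs -0.155 to 0.0351). Between the times of 1 genotype, same-numbered libraries had r from 0.0424 to 0.162, and other pairs -0.155 to 0.0221. The labels do not say that the numbers pair libraries, and whether they do within a genotype was not settled. The main fit did not pair them, and the replicate block tied same-numbered libraries of all 4 groups. With the replicate block 1 member had a larger response in CKO, Scd1 (1.09, edgeR adjusted p = 0.00013), which was also called in WT at 48 h over 0 h (-0.47, 0.000104) and in CKO over WT at 0 h (-0.80, 1.66e-05). The block also called a smaller response of Abcg1 in CKO (-0.56, edgeR adjusted p = 0.0329).

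Leaving out 1 library at a time gave 32 to 33 members higher and 5 lower at 48 h in CKO, and 32 and 5 in WT. It gave 4 to 7 higher and 0 to 3 lower in CKO over WT at 0 h, 1 to 3 and 1 to 2 at 48 h, and 0 and 2 to 6 for the difference of responses. Over all genes it gave 5966 to 6289 higher and 5948 to 6478 lower in CKO, 6023 to 6303 and 6065 to 6415 in WT, 402 to 866 and 287 to 719 between genotypes at 0 h, 204 to 420 and 141 to 367 at 48 h, and 43 to 123 and 72 to 207 for the difference of responses. With 3 libraries per group, genes near the threshold depend on single libraries, and Idi2 at 0 h has too few counts for a comparison of genotypes.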
